A study of Mus musculus with 4 samples.

Results

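Interferon-stimulated genes (ISGs) are the genes that cells switch on after they sense interferon. The set described here is a list of 35 mouse genes induced by type I interferon, and all 35 members were found in the gene lists of both libraries, which together held 26172 genes. The members were described in 2 classes of cell barcode. T barcodes had under 5000 UMIs (unique molecular identifiers, each counting 1 cDNA molecule) and at least 1 UMI of Cd3e, Cd3d or Cd3g, which encode the CD3 chains of the T cell receptor complex. Deep barcodes had 5000 or more UMIs and no UMI of these genes or of Ptprc, which encodes the leukocyte protein CD45.

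The cells came from tumours of MC38, a mouse colon carcinoma line, grown in FOXP3 humanized mice and in wild-type (WT) mice, with no treatment in either group. Mice were 10 weeks old at inoculation and tumours were taken on day 20, and the stated question concerned expression in regulatory T (Treg) cells, which FOXP3 defines. Immune cells were enriched on Percoll and profiled by droplet single-cell RNA-seq, with 1 cDNA library per genotype. No source used here states the mouse strain, which segment of the gene was humanized or how many mice each library pooled. Because n = 1 per genotype, no test was made, genotype cannot be told apart from library, mouse or tumour, and every interval below is a 95% interval that covers counting error only.

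The humanized library held 155 T barcodes and 9671 deep barcodes of 11087, and the WT library held 96 T barcodes and 6705 deep barcodes of 7691. Median UMIs per T barcode were 1587 in the humanized and 1700.5 in the WT library, and median UMIs per deep barcode were 12522 in the humanized and 16866 in the WT library. Although the labels describe immune cells, deep barcodes held few myeloid transcripts, with 0.583 CPM (a gene's UMIs scaled to 1000000 UMIs of all genes in the class) of 7 macrophage and monocyte markers summed in the humanized and 0.434 CPM in the WT library. Epithelial markers summed to 3.09 CPM in humanized and 5.71 CPM in WT deep barcodes, and fibroblast markers to 47.7 CPM in humanized and 47.8 CPM in WT ones. The 6 Treg markers summed to 80.4 CPM in humanized and 59.4 CPM in WT deep barcodes, of which Ctla4 had 75.8 CPM in humanized and 54.3 CPM in WT, while Foxp3 had 0.171 CPM in humanized and 0.147 CPM in WT. Deep barcodes are therefore named here by their rule and not by a cell type. Barcode names are serial labels, and the 1551 names that occur in both libraries do not show shared cells.

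Type I interferons act through the receptor subunits IFNAR1 and IFNAR2 and the kinases JAK1 and TYK2. The signal reaches the nucleus through the complex ISGF3, which contains STAT2 and IRF9 and binds a DNA element called the interferon-stimulated response element (ISRE). Interferon-gamma instead acts mainly through an element called the gamma-activated site (GAS), and some genes answer both signals. The products restrict viruses, sense nucleic acids, present antigen or feed back on the pathway, and in tumours they can be made by the cancer cells as well as by immune cells.

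Summed over the 35 members, T barcodes carried the higher level in both libraries. The sum was 1707 CPM in humanized T barcodes (1558 to 1868) and 359 CPM in humanized deep barcodes (356 to 362). In the WT library it was 2346 CPM in T barcodes (2131 to 2577) and 452 CPM in deep barcodes (448 to 456). The sum in T barcodes was therefore 4.75 times that in deep barcodes in the humanized and 5.19 times in the WT library. Barcodes outside both classes lay well below the T barcodes: deep barcodes with a CD3 or Ptprc UMI had 429 CPM in humanized and 385 CPM in WT, and shallow barcodes without a CD3 UMI had 568 CPM in humanized and 703 CPM in WT.

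A single gene made up a large share of each sum, and it was not the same gene in both classes. Ifi27l2a, a small interferon-induced membrane protein gene of the ISG12 family, had 35.4% of the member UMIs in humanized and 41.4% in WT T barcodes, against 7.78% in humanized and 7.70% in WT deep barcodes. Bst2, which encodes tetherin, the protein that holds budding virions at the cell surface, had 5.44% of the member UMIs in humanized and 6.21% in WT T barcodes, against 35.04% in humanized and 35.09% in WT deep barcodes. Without Ifi27l2a the members summed to 1104 CPM in T and 331 CPM in deep barcodes of the humanized library, and to 1375 CPM and 417 CPM in those of the WT library.

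**Figure D1:**
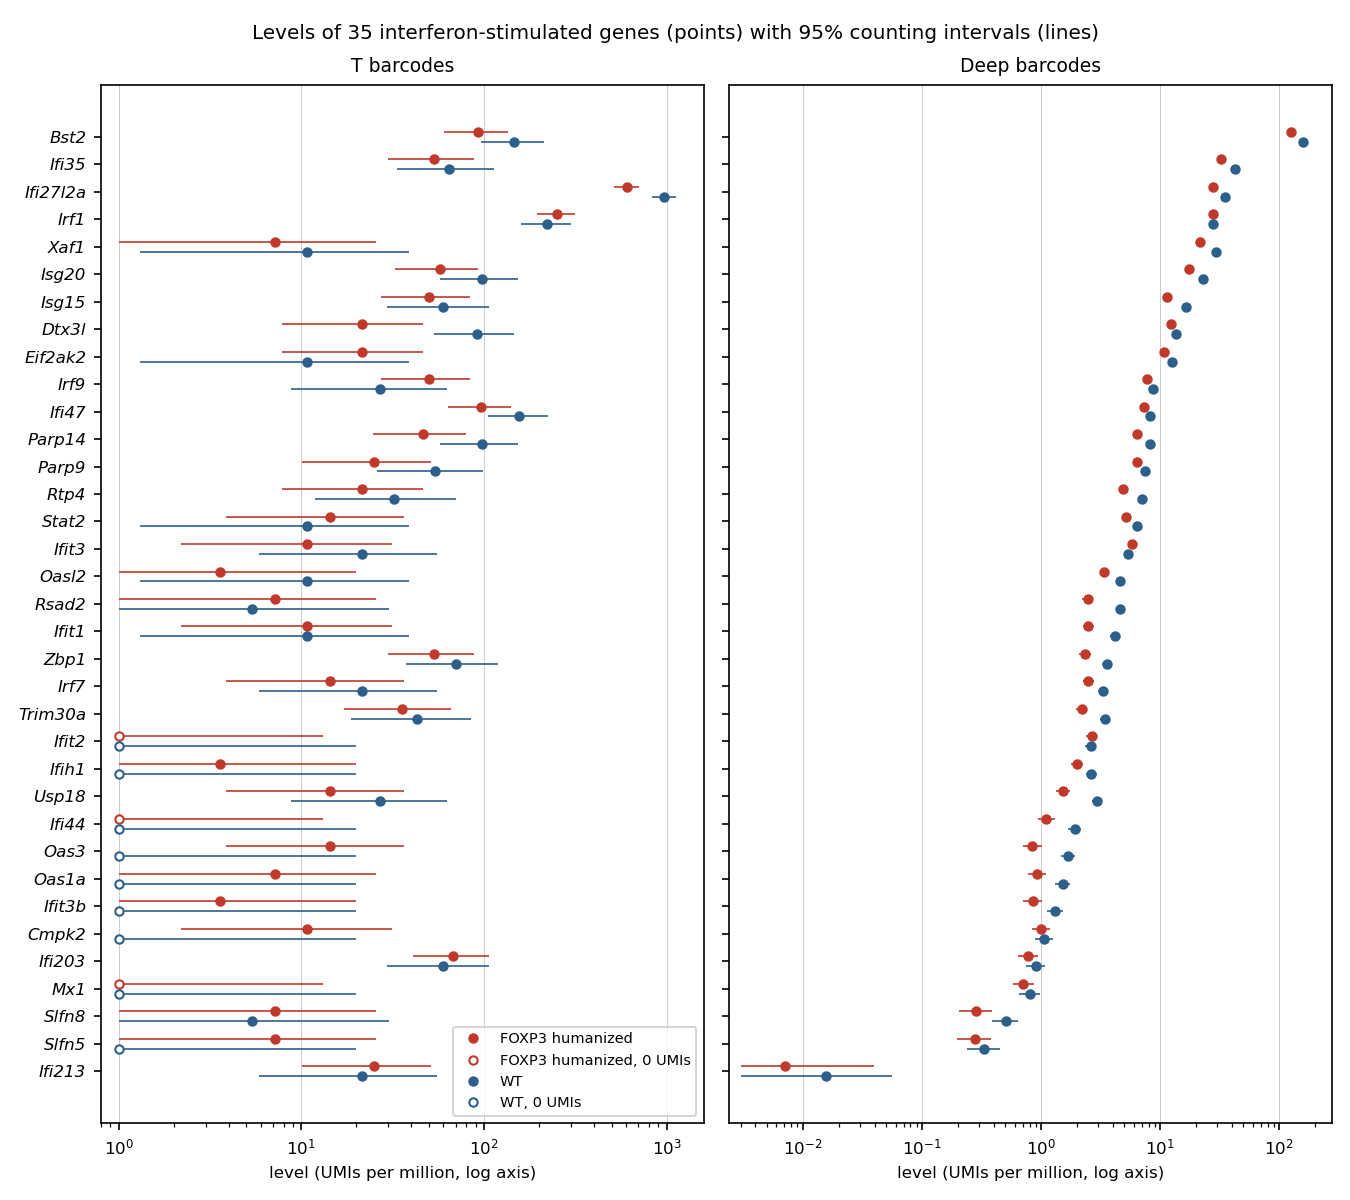
Level of each of the 35 genes in T barcodes (left) and deep barcodes (right), in CPM on a log axis, ordered by mean level in deep barcodes, with FOXP3 humanized in red above WT in blue and lines for 95% counting intervals, clipped at the left edge. Open points mark genes with 0 UMIs. Bst2 led in deep barcodes at 126 and 159 CPM and Ifi27l2a led in T barcodes at 604 and 971 CPM.

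Among the transcription factors of the set, Irf1 had the highest level in both classes. Irf1, which is induced by both interferon types, had 250 CPM in humanized and 221 CPM in WT T barcodes, against 27.6 CPM in humanized and 27.9 CPM in WT deep barcodes. The log2 ratio of T over deep barcodes was 3.18 in the humanized (2.82 to 3.52) and 2.99 in the WT library (2.50 to 3.43). Irf9, the DNA-binding subunit of ISGF3, had 50.01 CPM in humanized and 27.0 CPM in WT T barcodes, against 7.75 CPM in humanized and 8.75 CPM in WT deep barcodes. The log2 ratio of Irf9 in T over deep barcodes was 2.69 in the humanized library (1.81 to 3.44) and 1.62 in the WT library, where the interval included 0. Stat2 and Irf7, the factor that amplifies interferon-alpha production, had 5.16 and 2.50 CPM in humanized deep barcodes and 6.33 and 3.33 CPM in WT ones.

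The modifier and feedback members stood higher in T barcodes as well. Isg15, a ubiquitin-like protein that is attached to other proteins, had 50.01 CPM in humanized and 59.3 CPM in WT T barcodes, against 11.5 CPM in humanized and 16.6 CPM in WT deep barcodes. Usp18, the protease that removes ISG15 and damps signalling at IFNAR2, had 14.3 CPM in humanized and 27.0 CPM in WT T barcodes, against 1.54 CPM in humanized and 2.94 CPM in WT deep barcodes. These Usp18 levels in T barcodes rest on 4 UMIs in the humanized and 5 UMIs in the WT library, and 1 WT barcode held 4 of the WT library's 5. Without the highest barcode of each class, the WT log2 ratio of T over deep was 0.93 in place of 3.20.

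Of the members whose products bind or degrade viral RNA, the Ifit and OAS genes given here had lower levels than Isg20 in deep barcodes of both libraries. Ifit1, which binds viral RNA by its cap structure, had 3 UMIs (10.7 CPM) in humanized and 2 UMIs (10.8 CPM) in WT T barcodes, in each library all from 1 barcode, against 2.50 CPM in humanized and 4.17 CPM in WT deep barcodes. Ifit3b had 3.57 CPM in humanized T barcodes and 0 UMIs in WT ones, which allows up to 16.2 CPM by a floor of 3 counts, against 0.854 CPM in humanized and 1.30 CPM in WT deep barcodes. Ifit3b is a near-identical copy of Ifit3, so the split of reads between the pair is uncertain. The OAS genes make the second messenger that activates RNase L. Oas1a had 7.14 CPM in humanized T barcodes and 0 UMIs in WT ones, against 0.925 CPM in humanized and 1.52 CPM in WT deep barcodes. Oas3 had 14.3 CPM in humanized T barcodes and 0 UMIs in WT ones, against 0.847 CPM in humanized and 1.68 CPM in WT deep barcodes. Isg20, an exonuclease, was the highest of this group, with 57.2 CPM in humanized and 97.1 CPM in WT T barcodes, against 17.3 CPM in humanized and 22.8 CPM in WT deep barcodes.

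Several other effectors had T over deep ratios whose intervals included no difference in both libraries, namely Bst2, Eif2ak2, Xaf1 and Rsad2. Bst2 had 92.9 CPM in humanized T barcodes (60.7 to 136) and 146 CPM in WT T barcodes (96.0 to 212), against 126 CPM in humanized and 159 CPM in WT deep barcodes. Eif2ak2, which encodes the RNA-activated kinase PKR, had 21.4 CPM in humanized and 10.8 CPM in WT T barcodes, against 10.8 CPM in humanized and 12.5 CPM in WT deep barcodes. Xaf1, a binding partner of the apoptosis inhibitor XIAP, was the member with the lowest T over deep ratio among those with a UMI in T barcodes, with 7.14 CPM in humanized and 10.8 CPM in WT T barcodes, against 21.6 CPM in humanized and 29.2 CPM in WT deep barcodes. The log2 ratio of Xaf1 in T over deep barcodes was -1.59 in the humanized (-4.64 to 0.26) and -1.44 in the WT library (-4.48 to 0.42). Rsad2, which encodes viperin, had 7.14 CPM in humanized and 5.39 CPM in WT T barcodes, against 2.48 CPM in humanized and 4.58 CPM in WT deep barcodes.

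Ifi213 and Ifi203, of the HIN-200 family of DNA-binding proteins, had the highest T over deep ratios in both libraries, and among members with at least 10 UMIs in T barcodes of each library Ifi27l2a, Zbp1 and Ifi47 came next after Ifi203. On fewer UMIs, Slfn5 and Slfn8 had log2 ratios of 4.69 and 4.65 in the humanized library (2 UMIs each), and in WT T barcodes Slfn5 had 0 UMIs and Slfn8 had 1. Ifi203 had 67.9 CPM in humanized and 59.3 CPM in WT T barcodes, against 0.775 CPM in humanized and 0.906 CPM in WT deep barcodes, log2 ratios of 6.45 (5.67 to 7.16) and 6.03 (4.99 to 6.93). Ifi213 had 7 UMIs in humanized and 4 UMIs in WT T barcodes, against 1 UMI and 2 UMIs in the far larger sums of deep barcodes, and fell under the minimum of 20 UMIs. Ifi27l2a had 604 CPM in humanized T barcodes (516 to 702) and 971 CPM in WT ones, against 28.0 CPM in humanized and 34.8 CPM in WT deep barcodes. Zbp1, a sensor of Z-form nucleic acid, had 53.6 CPM in humanized and 70.1 CPM in WT T barcodes, against 2.35 CPM in humanized and 3.57 CPM in WT deep barcodes. Ifi47, a GTPase of the immunity-related family, had 96.4 CPM in humanized and 156 CPM in WT T barcodes, against 7.29 CPM in humanized and 8.27 CPM in WT deep barcodes.

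Ratios of further members spread widely. Ifi35 had 53.6 CPM in humanized and 64.7 CPM in WT T barcodes, against 32.3 CPM in humanized and 42.6 CPM in WT deep barcodes. Parp14, an ADP-ribosyltransferase, had 46.4 CPM in humanized and 97.1 CPM in WT T barcodes, against 6.40 CPM in humanized and 8.15 CPM in WT deep barcodes. Dtx3l, the ubiquitin ligase that pairs with PARP9, had 21.4 CPM in humanized and 91.7 CPM in WT T barcodes, against 12.2 CPM in humanized and 13.7 CPM in WT deep barcodes. Trim30a had 35.7 CPM in humanized and 43.1 CPM in WT T barcodes, against 2.19 CPM in humanized and 3.42 CPM in WT deep barcodes, log2 ratios of 4.03 and 3.66. Ifi44 and Slfn8 were low: Ifi44 had 0 UMIs in T barcodes of both libraries and 1.11 CPM in humanized and 1.93 CPM in WT deep barcodes, and Slfn8 had 7.14 CPM in humanized and 5.39 CPM in WT T barcodes against 0.285 CPM in humanized and 0.503 CPM in WT deep barcodes.

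Counted by a fold of at least 1.5, 28 of 34 measured members were higher in T than in deep barcodes of the humanized library, where 30% of all 15454 genes measured were. In the WT library 21 of 34 were, against 27.6% of 15992 genes. Xaf1 alone was lower in each library, against 19% of genes in the humanized and 17.4% in the WT library. With an interval that also excluded no difference, 18 members were higher in the humanized library and 15 in WT, against 16.4% and 13.8% of all genes, and none was lower, against 8.9% and 7.2%. Of these members 13 were higher in both libraries, 5 in the humanized library (Cmpk2, Irf9, Oas3, Slfn5 and Slfn8) and 2 in the WT library (Dtx3l and Ifit3), and the difference between libraries in these ratios was not tested. All 4 UMIs of Ifit3 in WT T barcodes came from 1 barcode. In T barcodes 1 UMI stood for 3.57 CPM in humanized and 5.39 CPM in WT, so members low in deep barcodes could count as higher on few UMIs. A count of 0 stood at the floor of 3 counts, so such members could not be called lower from it. Among genes with a UMI on each side, 29 of 32 members were 1.5-fold higher in the humanized library, against 46.1% of genes. In the WT library 22 of 26 were, against 46.4%.

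The members' median log2 ratio of T over deep barcodes was 2.11 in the humanized and 1.498 in the WT library, and that of all genes was -0.48 in humanized and -0.80 in WT. Genes with 0 UMIs in T barcodes ranked lowest in these medians, among them 3 members in the humanized and 9 in the WT library. Among genes with a UMI on each side, the members' median was 2.33 in the humanized and 2.46 in the WT library. That of all such genes was 0.402 and 0.422. The WT median rests on few UMIs: it was 0.29 with T barcodes under 3000 UMIs and -0.0106 without the barcode with the most UMIs of each gene, where that of all genes was -3.30. The humanized median was 2.25 and 1.78 under the same settings.

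T barcodes are shallow, and 3 members (Ifi44, Ifit2 and Mx1, a dynamin-like antiviral GTPase) had 0 UMIs there in both libraries, with 9 members at 0 in WT. Transcripts of other cell types were read in the same T barcodes. All 4 neutrophil markers and all 5 dendritic cell markers were at 0 in both libraries, and of 7 macrophage and monocyte markers only Ccr2, a receptor that T cells also express, had a UMI. Fibroblast markers summed to 3.57 CPM in humanized and 5.39 CPM in WT T barcodes, against 47.7 CPM in humanized and 47.8 CPM in WT deep barcodes. NK cell markers summed to 46.4 CPM in humanized and 32.4 CPM in WT T barcodes and B and plasma cell markers to 39.3 and 5.39 CPM, and of 4 endothelial markers only Pecam1 had UMIs (53.6 CPM in humanized and 135 CPM in WT). The part of these markers in the levels of the members was not tested.

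Within the T barcodes, those with at least 2 UMIs of Treg markers carried 1992 CPM of summed members in the humanized (1764 to 2241, 72 barcodes) and 2643 CPM in the WT library (2351 to 2962, 60 barcodes). Barcodes marked by gamma-delta T cell genes carried 1370 CPM in the humanized (1066 to 1734, 32 barcodes) and 1282 CPM in the WT library (928 to 1727, 19 barcodes). The remaining T barcodes carried 1458 CPM in the humanized (1220 to 1729, 51 barcodes) and 2404 CPM in the WT library (1948 to 2936, 17 barcodes). Ifi27l2a showed the widest gap among these subsets of the members compared, with 841 CPM in Treg-marked and 199 CPM in gamma-delta-marked barcodes of the humanized library, and 1277 and 119 CPM in those of the WT library. Irf1 was at 245 CPM in Treg-marked and 278 CPM in gamma-delta-marked humanized barcodes, with overlapping intervals. In WT ones Irf1 was at 241 and 149 CPM, the latter on 5 UMIs (48.4 to 348), and the intervals overlapped as well. The T barcode with the most member UMIs held 3.97% of them in the humanized and 7.59% in the WT library.

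In deep barcodes the members were unevenly spread over cells. Each deep barcode was thinned at random to 5000 UMIs, so that depth did not set its count. A thinned deep barcode held a median of 1 member UMI in the humanized and 2 in the WT library, and at most 57 in the humanized and 86 in the WT library. Barcodes with 10 or more member UMIs were 2.20% of humanized deep barcodes (213 of 9671, 1.92 to 2.51%) and 3.09% of WT ones (207 of 6705, 2.69 to 3.53%). They held 21.6% of all member UMIs in the humanized and 27.0% in the WT library. No gap marked this threshold, since 86 humanized and 85 WT barcodes had 8 or 9 member UMIs and 57 humanized and 43 WT barcodes had 10 or 11. Without Bst2 the share was 1.23% in the humanized and 1.82% in the WT library.

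**Figure D2:**
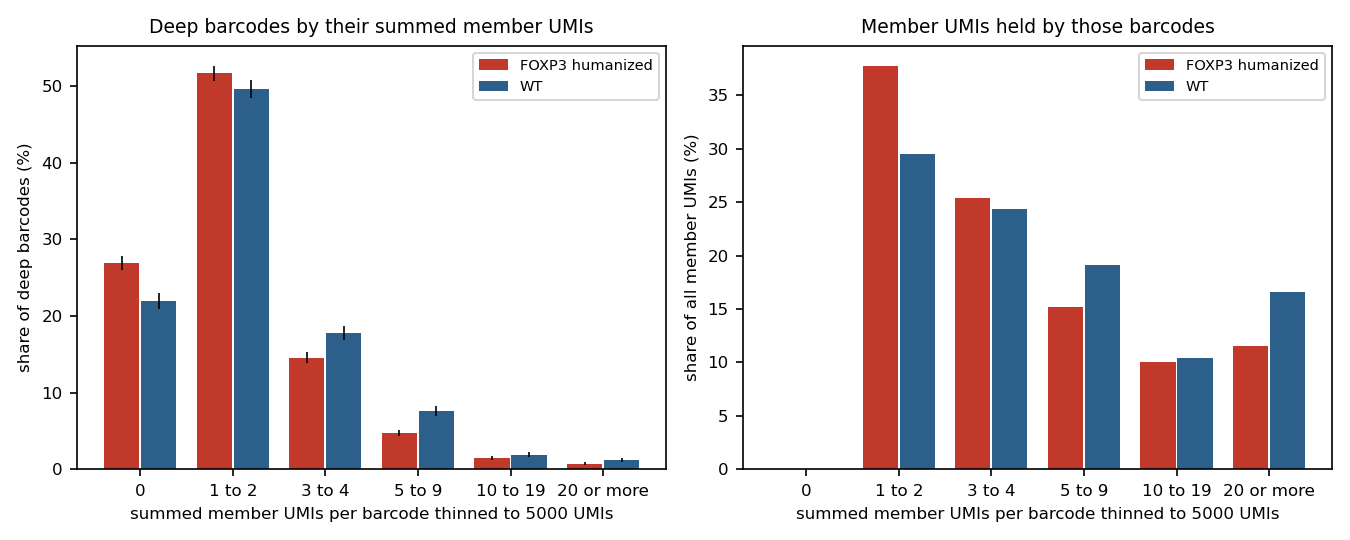
Deep barcodes thinned to 5000 UMIs, grouped by their summed member UMIs. The left panel gives the share of deep barcodes in each library with 95% binomial intervals, and the right panel gives the share of all member UMIs that these barcodes hold. Barcodes with 20 or more member UMIs were 0.724% of humanized and 1.19% of WT deep barcodes and held 11.6% and 16.6% of the member UMIs.

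To see which members were concentrated in the same barcodes, the deep barcodes were ranked for each gene by the thinned UMIs of the other 34 members, and the highest 10% were set against the rest. The gene itself took no part in the ranking. Of 34 members with UMIs, 14 were at least 10-fold higher in the top 10% in both libraries, and 16 were in the WT library, where Mx1 and Oas1a joined them. The 10-fold threshold was chosen after the values were seen. Among genes outside the set, ranked by all 35 members, 0.108% of 12959 passed it in both libraries and 0.144% of 13218 in the WT library. Ifit3 was at 60.8 CPM in the top 10% and 0.735 CPM in the rest of humanized deep barcodes, an 82.7-fold difference, and at 62.7 and 0.696 CPM in WT, a 90.1-fold difference. Rsad2 was 73.1-fold higher in the humanized and 81.1-fold in the WT library, Ifit1 was 56.8-fold and 72.1-fold, and Cmpk2, a mitochondrial nucleotide kinase, was 48.0-fold and 54.0-fold. Isg15 was at 96.4 CPM in the top 10% and 4.85 CPM in the rest in the humanized library, and at 130 and 6.30 CPM in WT, so that 68.8% of its humanized and 69.6% of its WT UMIs lay in the top 10% of barcodes. Usp18, Ifi44, Ifi203, Oasl2, Oas3, Irf7, Rtp4 and Zbp1 were the other genes past 10-fold in both libraries, with Ifit3b at 132-fold (log2 interval 5.40 to 9.38) in the humanized and 135-fold (5.44 to 9.41) in the WT library, on 3 UMIs outside the top 10% in each.

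Other members followed the set weakly. Isg20 was at 20.1 CPM in the top 10% and 16.4 CPM in the rest of humanized deep barcodes, and at 29.6 and 21.1 CPM in WT, folds of 1.23 and 1.40. Ifit2 was 1.65-fold higher in the humanized and 2.38-fold in the WT library, although it belongs to the same family as Ifit1 and Ifit3. Irf1 was 2.08-fold and 2.12-fold higher, Eif2ak2 1.87-fold and 2.07-fold, and Ifi35 2.75-fold and 2.74-fold. These 5 members stayed under 3-fold in both libraries. Bst2 combined a broad level with a raised one, at 380 CPM in the top 10% and 109 CPM in the rest of humanized deep barcodes, and at 525 and 136 CPM in WT.

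**Figure D3:**
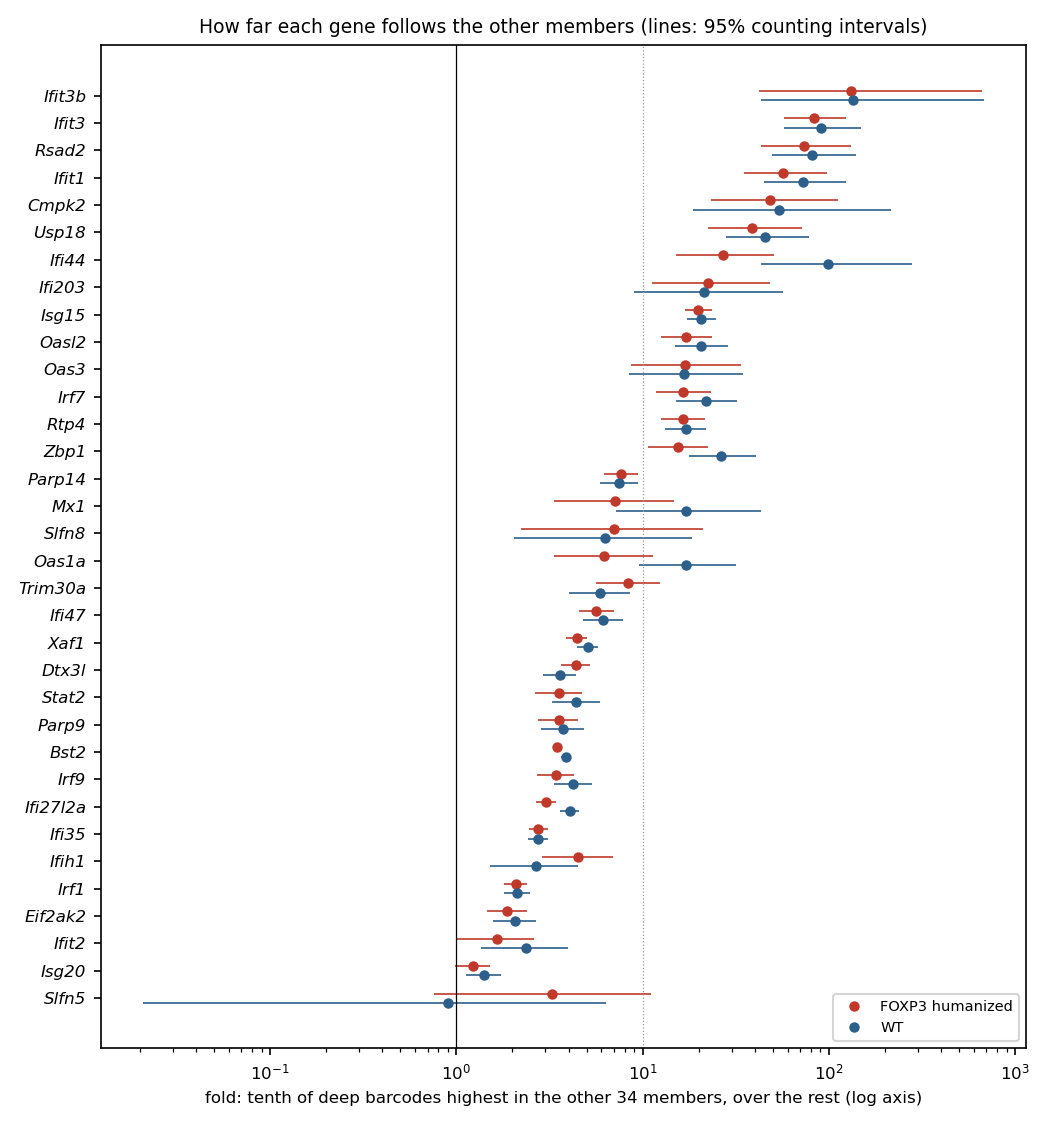
Fold of each member between the 10% of deep barcodes highest in the other 34 members and the rest, on a log axis, from barcodes thinned to 5000 UMIs, with FOXP3 humanized in red above WT in blue and lines for 95% counting intervals. The order runs by the lower fold of the libraries, with Ifit3b at 132 and 135 near the top and Isg20 at 1.23 and 1.40 near the bottom. Ifi213 had no UMI in thinned deep barcodes and is not shown.

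Variance over thinned barcodes was highest for Rsad2 and Ifit3. The variance of Rsad2 was 4.44 times its mean in the humanized and 4.75 times in the WT library, and that of Ifit3 was 4.11 and 4.22 times. Isg20 had 1.06 and 1.09 times, near the value of 1 that counting alone gives. The order was not that of the folds: Irf1 had 1.69 and 1.47 times, and Oas3, past 10-fold in both libraries, had 1.04 and 1.24 times. Variance of at least 1.5 times the mean was found for 9 of 28 humanized and 10 of 29 WT members with a mean of at least 0.005 UMIs, against 3.24% and 4.21% of all such genes. Across deep barcodes the highest correlations between members were those of Ifit1 with Ifit3 (Pearson r of log2 thinned UMIs plus 1, 0.54 in 9671 humanized and 0.65 in 6705 WT barcodes), Isg15 with Ifit3 (0.52 and 0.54) and Ifit3 with Rsad2 (0.51 and 0.50). Points within a library share its depth after thinning and its preparation, so these values are descriptive.

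Among members matched to a promoter window, the promoters of the 6 that correlated best with the sum of the others are printed. The printed promoters show which of these genes carry the ISRE letters near their start. Rtp4, with r of 0.24 in the humanized and 0.32 in the WT library, ranked above Rsad2 but had no window. Sequences are the 250 bases before the transcription start, 5′ to 3′ on the gene's strand, from RefSeq on GRCm38.p6, a build other than that of the count files. Capitals mark ISRE letters, searched as GAAA, any 2 bases and GAAA on both strands with overlaps allowed, so that a match on the other strand reads TTTC, any 2 bases and TTTC. The regions lie at chr4:156200819-156201068 (minus strand) for Isg15, chr19:34583279-34583528 (plus strand) for Ifit3, chr8:71537473-71537722 (minus strand) for Bst2, chr19:34640639-34640888 (plus strand) for Ifit1, chr12:26456453-26456702 (minus strand) for Rsad2 and chr5:114896684-114896933 (plus strand) for Oasl2.
Isg15: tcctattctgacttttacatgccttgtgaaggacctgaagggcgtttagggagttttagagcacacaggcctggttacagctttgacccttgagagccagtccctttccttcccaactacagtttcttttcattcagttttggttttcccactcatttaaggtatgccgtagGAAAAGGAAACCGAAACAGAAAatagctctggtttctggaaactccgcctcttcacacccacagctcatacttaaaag
Ifit3: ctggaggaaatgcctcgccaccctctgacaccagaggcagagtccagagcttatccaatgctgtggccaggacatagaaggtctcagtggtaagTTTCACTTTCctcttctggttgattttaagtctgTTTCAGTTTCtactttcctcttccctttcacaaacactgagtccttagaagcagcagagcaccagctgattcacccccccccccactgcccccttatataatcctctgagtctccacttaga
Bst2: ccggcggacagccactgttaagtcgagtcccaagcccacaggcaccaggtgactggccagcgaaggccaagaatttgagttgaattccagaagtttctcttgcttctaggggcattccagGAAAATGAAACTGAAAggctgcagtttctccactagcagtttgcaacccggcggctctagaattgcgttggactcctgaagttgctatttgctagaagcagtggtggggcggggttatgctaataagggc
Ifit1: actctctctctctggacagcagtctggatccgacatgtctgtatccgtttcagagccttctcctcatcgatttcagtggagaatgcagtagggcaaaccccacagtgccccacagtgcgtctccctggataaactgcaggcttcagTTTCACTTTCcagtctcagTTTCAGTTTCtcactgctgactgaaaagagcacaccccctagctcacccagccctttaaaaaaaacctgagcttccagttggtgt
Rsad2: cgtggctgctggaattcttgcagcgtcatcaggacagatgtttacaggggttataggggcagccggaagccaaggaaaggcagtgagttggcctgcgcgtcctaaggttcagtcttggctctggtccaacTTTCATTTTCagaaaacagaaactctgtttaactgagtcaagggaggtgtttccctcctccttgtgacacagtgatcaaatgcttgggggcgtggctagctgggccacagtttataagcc
Oasl2: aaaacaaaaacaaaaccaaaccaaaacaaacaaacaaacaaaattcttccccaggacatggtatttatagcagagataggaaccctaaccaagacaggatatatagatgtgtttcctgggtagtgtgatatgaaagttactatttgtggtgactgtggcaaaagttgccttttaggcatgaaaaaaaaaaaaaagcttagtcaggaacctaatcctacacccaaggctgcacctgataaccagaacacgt

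Isg15 held 3 overlapping matches between positions -78 and -57 from the start, and Bst2 held 2 overlapping ones between -130 and -115. Ifit3 held 2 separate matches starting at -156 and -122, Ifit1 held 2 starting at -104 and -85, and Rsad2 held 1 starting at -120. Oasl2 held none, which says only that these letters are not in this window. Counting windows that also take in 50 bases after the start, ISRE letters were found for 16 of 28 members (57.1%) and for 3.99% of 27025 genes. GAS letters, searched as TTC, any 3 bases and GAA, were found for 7 of 28 members (25%) and for 9.55% of genes, and both motifs for 3 members and 0.540% of genes. Irf1, Isg20, Ifit2 and Ifi35, all under 3-fold in the top 10% of barcodes, held GAS letters and no ISRE letters, and Eif2ak2, the fifth such member, held both. Bst2 and Oas1a, the other members with GAS letters, also held both, with folds of 3.49 and 6.21 in the lower library for each. Slfn5 and Ifih1, under 3-fold in the WT library only, held ISRE letters and no GAS letters. Irf7, Oasl2, Cmpk2 and Ifi44, past 10-fold in both libraries, held neither. Members with ISRE letters had a median fold of 6.31 in the top 10%, taking the lower library for each (15 members, 0.901 to 132), and those without had 4.00 (12 members, 1.23 to 48.0). At least 10-fold was reached by 7 of the 15 and 4 of the 12. The part of these motifs in the folds was not tested. Usp18, Zbp1, Mx1, Ifi27l2a, Rtp4, Parp9 and Parp14 were not matched to a window.

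Beyond the 35 members, the genes most like their sum across deep barcodes were ranked by correlation. Ranked by the lower Pearson r of the libraries among 6942 genes with a mean of at least 0.05 thinned UMIs, the first was Ifitm3, a membrane protein that blocks virus entry, with r of 0.28 in the humanized and 0.33 in the WT library. Gbp2, a guanylate-binding GTPase, followed with 0.23 in both. The next places went to Ly6a, Ly6c1, Apol9b, H2-T22, B2m, Psmb8, Psmb9, Ube2l6, Tapbp, Ly6e, H2-K1, Psmb10 and H2-D1, and among these are the class I light chain (B2m), immunoproteasome subunits (Psmb8, Psmb9 and Psmb10), class I heavy chains and the ISG15-conjugating enzyme Ube2l6. The fifteenth gene had r of 0.14 and 0.19, and the 99th percentile of the lower r over all ranked genes was 0.046. With the minimum mean at 0.01, a choice made after seeing the data, 7 of these 15 remained and genes such as Apol9a, Cxcl10 and Igtp entered.

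The same contrast was then read over lists of related genes that hold no member, with deep barcodes ranked by all 35 members. Counting genes at least 1.5-fold higher in the top 10% of barcodes in both libraries, against 2.02% of 12959 genes outside the set, 14 of 15 measured interferon-gamma-inducible GTPases and targets were higher, with median folds of 8.85 in the humanized and 9.01 in the WT library. Gbp2 was at 73.0 CPM in the top 10% and 8.13 CPM in the rest of humanized deep barcodes, and at 67.2 and 7.39 CPM in WT. All 3 measured interferon-induced chemokines were higher, and Cxcl10, the ligand of CXCR3 on T cells, was at 57.3 CPM in the top 10% and 2.69 CPM in the rest in humanized, and at 101 and 3.45 CPM in WT. Further ISGs were higher for 27 of 34 measured genes, with Ifitm3 at 1193 CPM in the top 10% and 560 CPM in the rest in humanized, and at 1448 and 548 CPM in WT.

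Class I presentation genes were higher for 8 of 12, by smaller folds, with Tapbp 1.97-fold in the humanized and 2.29-fold in the WT library. H2-K1 was 1.30-fold and 1.43-fold higher, under the threshold. Nucleic acid sensing genes were higher for 7 of 13, feedback and ISG15 conjugation genes for 4 of 7 and NF-kappaB targets for 5 of 11, among them Ccl2 at 2.16-fold and 3.14-fold. The receptor genes Ifnar2 and Ifngr1 had folds of 1.13 and 1.28 in the humanized and 0.942 and 1.19 in the WT library.

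**Figure D4:**
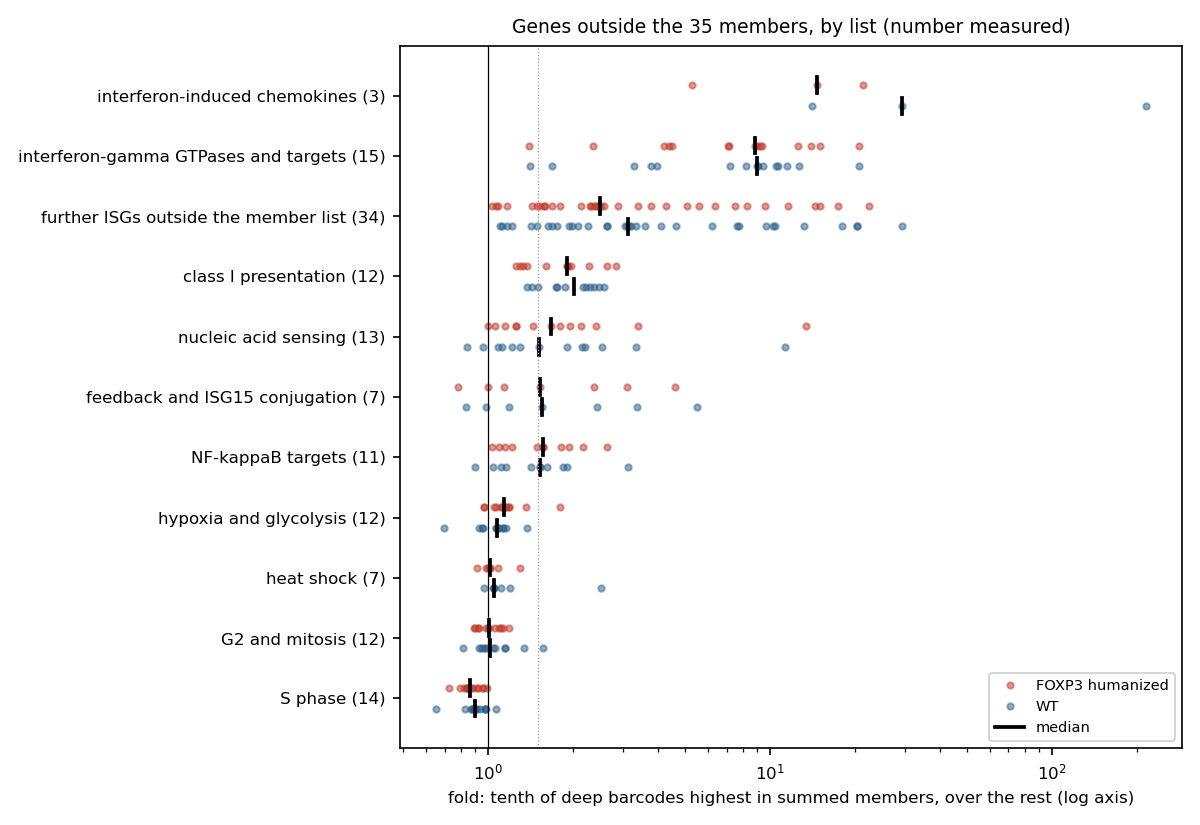
Fold between the 10% of deep barcodes highest in the 35 members summed and the rest, on a log axis, for genes of 11 lists outside the set, with 1 point per gene, FOXP3 humanized in red above WT in blue and black bars at each list's median. Median folds were 8.85 and 9.01 for interferon-gamma GTPases and targets and 0.860 and 0.897 for S phase genes.

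None of 14 S phase, 12 G2 and mitosis, 12 hypoxia and glycolysis or 7 heat shock genes measured was 1.5-fold higher or lower in the top 10% in both libraries. Of 12959 genes outside the set 2.02% were higher and 1.19% lower, so counts of 0 in lists this short lie near those shares. Barcodes of the top 10% were shallower before thinning, with medians of 11103 UMIs against 12662 in the rest of the humanized library and 14453 against 17119 in the rest of the WT library. Their median mitochondrial share was 0.0915% against 0.0937% in the humanized and 0.129% against 0.139% in the WT library. Markers of other cell types were read in the same barcodes: the 7 macrophage and monocyte markers summed to 0.620 CPM in the top 10% and 0.597 CPM in the rest in the humanized library, and to 0.299 and 0.398 CPM in WT, and the 5 dendritic cell markers were at 0 in the top 10% of both libraries. The 4 endothelial markers summed to 3.31 CPM (16 UMIs) in the top 10% and 1.63 CPM in the rest in the humanized library, and to 2.69 CPM (9 UMIs) and 1.56 CPM in WT. Fibroblast markers summed to 60.6 CPM in the top 10% and 47.2 CPM in the rest in humanized, and to 41.8 and 50.7 CPM in WT. Treg markers, mostly Ctla4, summed to 90.8 CPM in the top 10% and 83.8 CPM in the rest in humanized, and to 71.6 and 62.1 CPM in WT. The part of these markers in the folds was not tested.

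Interferon transcripts themselves were nearly absent from deep barcodes. Of 21 interferon genes on the list 4 were in the files, and in thinned deep barcodes they had 5 UMIs in the top 10% and 4 in the rest of the humanized library, and 0 and 1 in the WT library. Ifng, which encodes interferon-gamma, was found mainly in T barcodes, at 868 CPM in humanized (243 UMIs, 762 to 984) and 43.1 CPM in WT ones (8 UMIs, 18.6 to 85.0). Ifnb1, which encodes interferon-beta, had 0 UMIs in T barcodes of both libraries.

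The Ifit type of response and the GTPase type overlapped in part. At least 2 thinned UMIs over 6 Ifit-type genes were found in 1.12% of humanized and 1.28% of WT deep barcodes, and at least 2 over 14 GTPase genes in 3.35% of humanized and 4.59% of WT ones. Barcodes past both thresholds were 46.3% of the Ifit-positive ones and 15.4% of the GTPase-positive ones in the humanized library, and 62.8% and 17.5% in the WT library. Among Ifit-negative barcodes 2.87% in the humanized and 3.84% in the WT library were GTPase-positive. The correlation of the summed groups across deep barcodes was 0.27 in 9671 humanized and 0.33 in 6705 WT barcodes.

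Between genotypes, deep barcodes of the humanized library had lower levels of most members, against a general shift in the same direction. The median log2 ratio of humanized over WT was -0.39 over 34 measured members and -0.24 over all 17125 genes measured. Of the 34 members 32 were below 0, as were most of all genes measured. The exact share of all genes below 0 is not given here, so this count alone is not a result about the members. With the median of all genes set to 0, the members' median was -0.16 and 23 of 34 were below 0. By fold, 10 of 34 members were at least 1.5-fold lower, against 19.4% of all genes, and none was higher, against 1.83%. The intervals of all 10 excluded no difference, as for 15.6% of all genes lower and 0.928% higher. None of the 34 was 2-fold lower, against 6.91% of genes. With the median of all genes set to 0, 4 of 34 were 1.5-fold lower, against 10.9% of genes.

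The 10 members were Oas3, Usp18, Rsad2, Slfn8, Ifi44, Ifit1, Oas1a, Trim30a, Ifit3b and Zbp1. The place of Ifit3b is uncertain, as is the split of reads between it and its near-identical copy Ifit3. Oas3 had the lowest log2 ratio, -0.99 (-1.32 to -0.66), at 0.847 CPM in humanized and 1.68 CPM in WT deep barcodes. Usp18 was at -0.94 (-1.19 to -0.69) and Rsad2 at -0.89 (-1.08 to -0.70), and after centring these stood at -0.75 for Oas3, -0.70 for Usp18 and -0.65 for Rsad2. The other 7 lay between -0.82 for Slfn8 and -0.60 for Zbp1, and between -0.59 and -0.37 after centring. Ifit3 and Cmpk2, which followed the same barcodes as Rsad2 and Ifit1 within each library, were not among them: Ifit3 was at 0.12 (-0.03 to 0.27) with 5.84 CPM in humanized and 5.38 CPM in WT deep barcodes, and Cmpk2 was at -0.08 (-0.43 to 0.27). Irf1 was at -0.02 (-0.08 to 0.05), Ifit2 at 0.02 (-0.20 to 0.24) and Bst2 at -0.33 (-0.36 to -0.30).

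**Figure D5:**
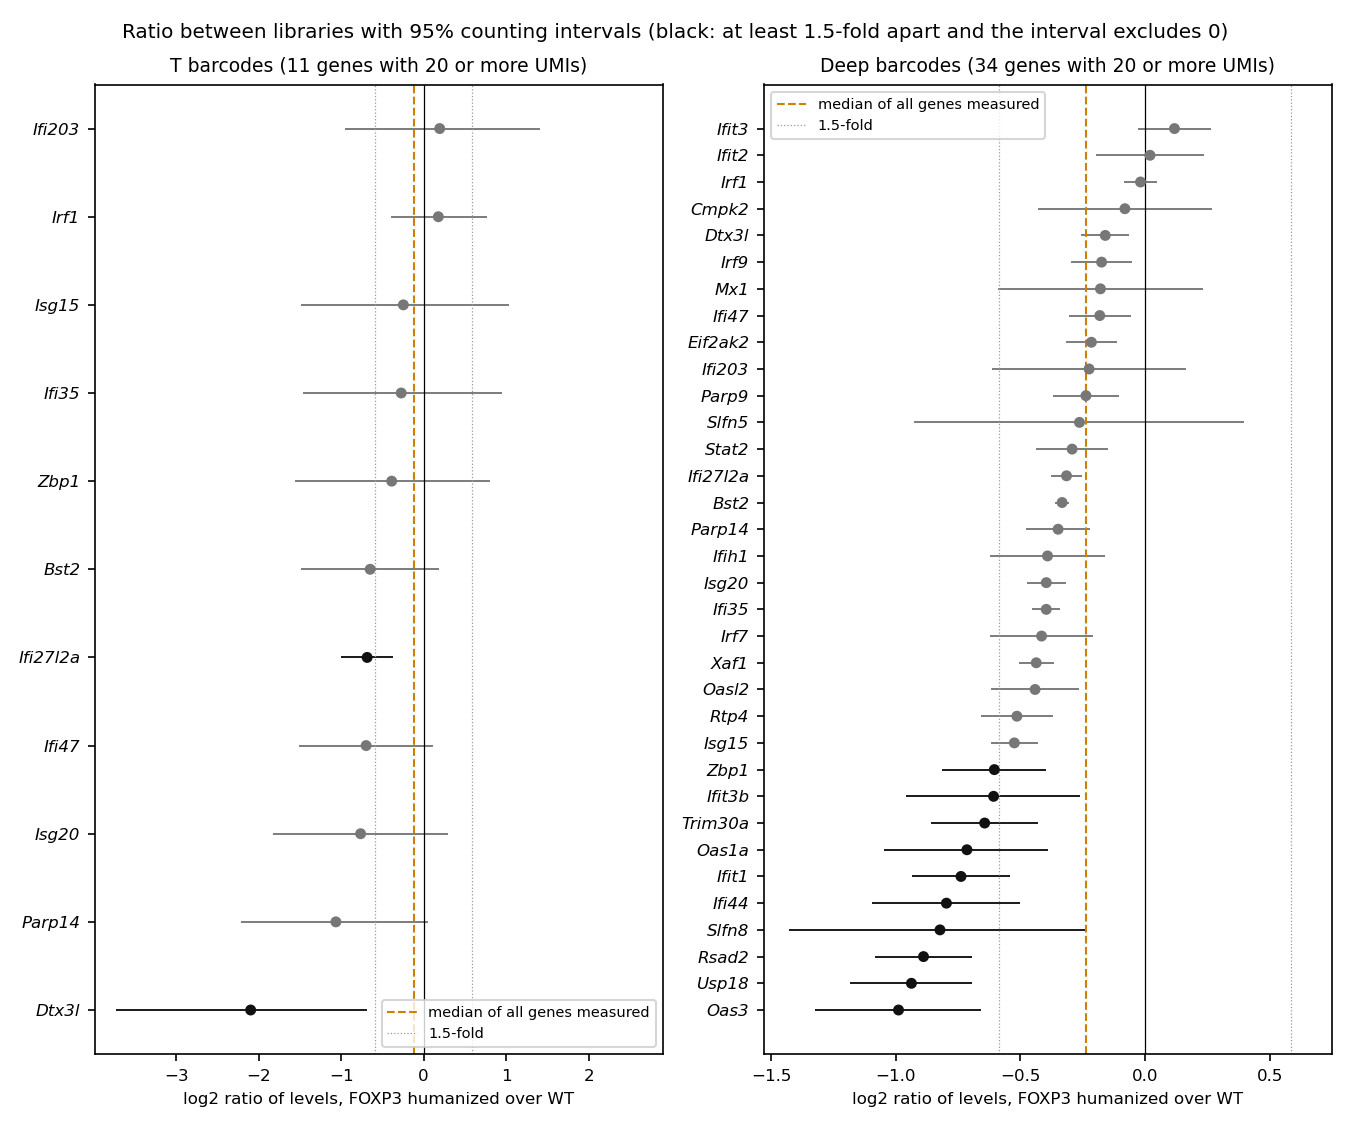
Log2 ratio of the level in the FOXP3 humanized over the WT library for each member with at least 20 UMIs, in T barcodes (left, 11 genes) and deep barcodes (right, 34 genes), with lines for 95% counting intervals. The dashed line marks the median of all genes measured, at -0.12 in T and -0.24 in deep barcodes, and dotted lines mark 1.5-fold. In deep barcodes 32 of 34 points lie below 0, as do most of all genes measured, and 23 lie below the dashed line.

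Lists of related genes were counted in the same contrast, where 19.4% of all genes were 1.5-fold lower and 1.83% higher. Interferon-gamma GTPases and targets were 1.5-fold lower in the humanized library for 11 of 19 genes, with a median log2 ratio of -0.65, and all 4 interferon-induced chemokines were lower, with a median of -0.96. Further ISGs were lower for 11 and higher for 1 of 39 and class I presentation genes were lower for 2 of 12, and NF-kappaB targets were higher for 2 and lower for 0 of 11. No S phase, G2 and mitosis or hypoxia gene was 1.5-fold apart in either direction, and the hypoxia and glycolysis list had a median of 0.24. Leaving out the 10% of barcodes highest in the other members, per gene, put the members' median log2 ratio at -0.30, against -0.37 for the same thinned UMIs in all deep barcodes.

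In T barcodes 11 members reached 20 UMIs over both libraries. Ifi27l2a was lower in the humanized library, with 169 UMIs in humanized and 180 in WT T barcodes, a log2 ratio of -0.69 (-0.997 to -0.37). Dtx3l, with 6 UMIs in humanized and 17 in WT T barcodes, was at -2.10 (-3.73 to -0.69). By fold, 6 of 11 members were 1.5-fold lower, against 19.3% of 3388 genes, and none was higher, against 11% of genes. Only Ifi27l2a and Dtx3l of these 6 had an interval that excluded no difference, against 5.87% of genes lower and 2.54% higher. With the median of all genes set to 0, 3 of the 11 were 1.5-fold lower, against 13.05% of genes, and Ifi27l2a was not among them at -0.56. With T barcodes under 3000 UMIs Ifi27l2a was at -0.54, also short of 1.5-fold. The members' median was -0.65 and that of all genes -0.12. Irf1 was at 0.18 (-0.40 to 0.77) and Ifi203 at 0.19 (-0.95 to 1.41), and both intervals allow a difference in either direction. Treg-marked barcodes made up different numbers of T barcodes in the libraries (72 of 155 in humanized and 60 of 96 in WT), and the part of this makeup in the difference of Ifi27l2a was not tested. The Treg markers include Foxp3, the humanized gene, which had a UMI in 6.45% of humanized and 18.75% of WT T barcodes. Whether the marker rule works alike in both genotypes was not tested. Within Treg-marked barcodes Ifi27l2a had 841 CPM in the humanized (696 to 1008) and 1277 CPM in the WT library (1076 to 1504).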

How the data were processed

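Tumour cell suspensions from FOXP3 humanized and WT mice went through a DNBelab C droplet kit according to the labels' protocols. Of 4 labelled samples, the cDNA library of each genotype was analysed, and 2 oligo libraries are not used here. The deposited values are raw UMI counts for each gene in each barcode, and per the file headers PISA 1.0 wrote them. GRCm39 is named by the submitters' processing notes. Aligner, annotation, strand setting and cell calling: not given in the sources used here, so reads of near-identical or overlapping genes may be divided in unknown ways.

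The 35 members and all gene lists were chosen with earlier results of these data known. Barcodes were classed by UMIs and by CD3 or Ptprc UMIs, with no other filter and no doublet caller, and counts were summed per class and library. Levels are CPM, not divided by gene length because a UMI counts a molecule, with exact Poisson intervals. Log2 ratios have exact conditional intervals and shares have Clopper-Pearson intervals, all at 95%. A gene was measured with 20 or more UMIs over both sums, and the floor for a count of 0 was 3 counts per sum. Medians of log2 ratios did not use this floor. Deep barcodes were thinned to 5000 UMIs and T barcodes to 1000, and 0 barcodes were too shallow. Members given in full were the 12 highest in deep barcodes and those 1.5-fold apart between libraries with an interval excluding no difference. The 15 genes most like the set, the promoters of 6 members and up to 4 highest genes of a list were also named by rule, and Ifi203 and some other members and list genes were given more fully after their values were seen. The 10-fold and 10-UMI thresholds were chosen after seeing the data. Alternatives changed the scaling, barcode classes, minimum UMIs, fold, thinning and left-out barcodes. Ratios and intervals were run on simulated Poisson sums, the model that the intervals assume. That run cannot show how the intervals hold for genes concentrated in few barcodes. The full list of receptors and proximal signalling genes is not reported here. Python 3.11.15, NumPy 2.4.6, SciPy 1.17.1 and pandas 2.3.3 were used.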

Additional observations from a re-analysis of the deposited data

How the results depend on the processing

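No paired analysis was possible because each genotype has 1 library, and no result has a replicate check. With the median of all genes set to 0, the members' median log2 ratio of humanized over WT in deep barcodes was -0.16 in place of -0.39, and members 1.5-fold lower in the humanized library were 4 in place of 10 in deep barcodes and 3 in place of 6 in T barcodes. At 2-fold, 0 members were lower in deep barcodes (6.91% of all genes) and 2 in T barcodes (5.67%). In T barcodes the count of lower members was also 3 with barcodes under 3000 UMIs (17.05% of all genes), 1 of 2 measured with at least 100 UMIs (6.1%), 13 of 26 measured with 1 UMI on each side (36.4%) and 2 with an interval excluding no difference (5.87%). In T barcodes, members higher in the humanized library were 1 with barcodes weighted equally, in place of 0. The share of all genes for that setting is not given here, so this count is not a result about the members. Members higher there were 2 of 26 with 1 UMI on each side, against 17.4% of all genes. An interval excluding no difference left 18 in place of 28 members higher in T than in deep barcodes of the humanized library (16.4% of all genes). It left 0 in place of 1 lower in the humanized (8.9%) and 0 in the WT library (7.2%). Members lower in T than in deep barcodes were 3 in the humanized and 2 in the WT library with barcodes weighted equally, 3 and 2 without the highest barcode of each gene, and 2 in the humanized library with T barcodes under 3000 UMIs. Shares of all genes for these settings are not given here, so these counts are not results about the members. Without the highest barcode of each gene the WT median log2 ratio of T over deep barcodes reversed to -0.0106 in place of 1.498, a setting that by construction removes a member's only UMI in T barcodes. The share of deep barcodes with 10 or more member UMIs was 1.23% in the humanized and 1.82% in the WT library without Bst2, and 1.64% and 2.55% with deep barcodes from 10000 UMIs. The median over members of the share of deep barcodes with a UMI was 1.44% in the humanized and 1.70% in the WT library, and 2.81% and 4.70% without thinning. Of the 15 genes most like the set, 7 were shared with the ranking at a minimum mean of 0.01. Among the other alternatives of these summary results, 123 kept their direction and stayed within a counting interval or 1.5 times. For medians over members this was the interval of the member nearest the median. It can be wide, so the WT median of 0.29 with T barcodes under 3000 UMIs is among the 123. Also among them is a limit of 10% mitochondrial UMIs. That limit left out no deep or T barcode, whose highest share was 3.40%, so it could change no value. Low UMI counts limit T barcodes, where 9 members had 0 UMIs in the WT library. The cause of these changes was not tested.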
